A study of Mus musculus with 8 samples.

Results

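The EGF-type ligands and the ErbB receptors are a family of signaling genes of which 10 were examined here, 6 ligands (Hbegf, Areg, Ereg, Btc, Tgfa and Epgn) and 4 receptors (Egfr, Erbb2, Erbb3 and Erbb4). They were matched by symbol in the count table, where each was found once among 31894 genes. The family was chosen because Hbegf was among the genes most consistently higher in E-cadLO than in E-cadHI tumor cells, so this contrast chose Hbegf, and its values are given as a description without a test. Of the 10 members, 9 had enough counts to be tested, and Ereg did not.

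The ligands are made as precursors in the cell membrane, and proteases of the ADAM family release their soluble form. A ligand brings a pair of receptors together, the receptors phosphorylate each other, and the signal passes through Ras and ERK, PI3K and AKT, and STAT proteins. In the mammary gland amphiregulin (Areg) drives the growth of ducts, and HB-EGF (Hbegf) is known from other models of breast cancer that spreads to the brain.

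Breast cancer brain metastases (BCBM) were grown in FVB mice, and tumor cells with a high (E-cadHI) and a low (E-cadLO) signal of E-cadherin fused to mCFP were sorted from each of 4 mice, numbered 57, 58, 67 and 70. Both groups carry the same labels for strain (FVB), genotype (wild type), tissue (brain metastasis tumor) and disease (breast cancer), and differ in E-cadherin status. The tumor cells derive from PyMT E-cad-mCFP mice, in which the middle T oncogene is expressed in mammary epithelium. Each population gave 1 bulk mRNA library, so there were 8 libraries, 4 per group. The mice were adults when the tumor cells were injected. As a model, the groups are limited in that the tumor cells come from organoids made after serial transplantations in the brain, that the gate rests on the fusion protein, and that the purity of the sort was checked on E-cadHI cells and not on E-cadLO cells.

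The total count over genes was 14922074, 13006189, 13437544 and 11876177 in the E-cadHI libraries of mice 57, 58, 67 and 70. It was 11325146, 9102781, 14313787 and 15769200 in the E-cadLO libraries of the same mice. At these depths, 3 counts, the upper limit that a count of 0 allows, correspond to between 0.190 and 0.330 CPM (counts scaled to library size), a limit that covers counting error only. Levels below are CPM after TMM scaling (normalized CPM), and the ratio within a mouse is the log2 of E-cadLO over E-cadHI after 0.5 CPM was added to each.

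The labels were first held against markers. The epithelial genes Epcam, Krt8, Krt18 and Cdh1 were detected in every library. Krt8 and Krt18 were each higher in E-cadLO cells of 2 mice and lower in 2. Their log2 fold changes were 0.09 for Krt8 and 0.28 for Krt18 (edgeR without a block for the mouse). Epcam, an epithelial surface protein, was at 1344, 1134, 1291 and 1311 normalized CPM in the E-cadHI libraries of mice 57, 58, 67 and 70 and at 290.2, 1101, 827 and 792 in their E-cadLO libraries, lower in E-cadLO cells of all 4 mice. Cdh1, which encodes E-cadherin itself, was at 113.8, 132.0, 93.5 and 107.7 in E-cadHI cells and at 71.6, 181.5, 84.5 and 59.2 in E-cadLO cells. The mRNA thus lay lower in E-cadLO cells of 3 mice and higher in mouse 58, and the groups overlapped. Both libraries of mouse 58 also stood apart in the noncoding RNA Gm42418. It took 14.4% of the counts in the E-cadLO library and 7.67% in the E-cadHI library of this mouse. In the libraries of the other mice it took from 2.23% to 3.93%.

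Hbegf (ENSMUSG00000024486, chr18:36504929-36515805, minus strand, GRCm38) encodes HB-EGF, a heparin-binding ligand of EGFR and ErbB4. It had 21.7, 22.6, 24.2 and 27.6 normalized CPM in the E-cadHI libraries of mice 57, 58, 67 and 70, and 144.6, 62.8, 100.2 and 70.7 in their E-cadLO libraries. The E-cadHI libraries lay close together, the E-cadLO libraries were spread more widely with mouse 57 highest, and the groups did not overlap. Within the mice, the level in E-cadLO cells was 6.54, 2.74, 4.08 and 2.54 times that in E-cadHI cells, a mean log2 ratio of 1.88 ± 0.63 (SD, n = 4 mice). The group means were 24.0 ± 2.59 and 94.6 ± 37.0 normalized CPM (SD, n = 4 each), and the fitted log2 fold change was between 1.61 and 2.19 over 23 alternative settings. Ordered by the smallest of the 4 ratios, Hbegf was gene 109 of the genes tested, between Cxcl11 (1.35) and Pid1 (1.34) on the log2 scale. The rule that chose the family had no stated threshold.

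Areg (ENSMUSG00000029378, chr5:91139599-91148432, plus strand) encodes amphiregulin, a ligand of EGFR. It had 1.05, 1.77, 2.68 and 4.04 normalized CPM in E-cadHI cells of mice 57, 58, 67 and 70, and 12.1, 5.82, 5.72 and 7.69 in their E-cadLO cells. Every E-cadLO library lay above every E-cadHI library, and mouse 57 had both the lowest and the highest level. The log2 fold change was 1.72 (SE, the standard error, 0.51), higher in 4 of 4 mice, and did not pass the test across all genes (adjusted p = 0.282, quasi-likelihood test of edgeR, adjusted by Benjamini-Hochberg). In the paired fit of edgeR, which takes the mouse as a replicate block, its log2 fold change was 1.76 (adjusted p = 0.175). DESeq2 called Areg higher, with an adjusted p of 0.0233 without the block and 0.0201 with it, in a range from 0.0201 to 0.680 over 23 alternatives. With all libraries, whether Areg passed therefore depended on the tool. The size of its log2 fold change also depended on the mice included. In edgeR without the block it was 1.16 without mouse 57 and 2.12 without mouse 70. These were the lowest and highest values over the 23 alternatives, and all of them were above 0.

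The other ligands tested, Epgn, Tgfa and Btc, did not pass in edgeR or in DESeq2, and they did not share a direction. Epgn (ENSMUSG00000035020, chr5:91027464-91035215, plus strand), which encodes the EGFR ligand epigen, had 1.18, 1.23, 3.49 and 2.72 normalized CPM in E-cadHI and 4.68, 3.84, 12.5 and 2.03 in E-cadLO cells of mice 57, 58, 67 and 70. It was higher in E-cadLO cells of 3 mice and lower in mouse 70, with a log2 fold change of 1.41 (SE 0.65, adjusted p = 0.367, edgeR). With the replicate block its log2 fold change was 1.29 (SE 0.55, adjusted p = 0.255, edgeR). Without the block and without the E-cadLO library of mouse 67 it was 0.70. Tgfa (ENSMUSG00000029999, chr6:86195223-86275719, plus strand), which encodes the EGFR ligand TGF-alpha, had 12.1, 24.7, 12.3 and 16.6 normalized CPM in E-cadHI and 5.05, 30.5, 25.0 and 37.1 in E-cadLO cells. Mouse 57 was the exception here, with a lower level in E-cadLO cells, and the log2 fold change was 0.57 (SE 0.52, adjusted p = 0.593, edgeR). With the replicate block the log2 fold change was 0.35 (SE 0.41, adjusted p = 0.653, edgeR). Without mouse 70 it was 0.30, or 0.06 with the replicate block, without mouse 57 it was 0.76, or 0.81 with the block, and without the E-cadLO library of mouse 57 it was 0.88.

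Btc (ENSMUSG00000082361, chr5:91357261-91402994, minus strand) encodes betacellulin, a ligand of EGFR and ErbB4. It was the ligand with lower levels in E-cadLO cells of all 4 mice, at 10.5, 3.92, 8.84 and 4.83 normalized CPM in E-cadHI and 5.87, 3.61, 2.09 and 4.05 in E-cadLO cells of mice 57, 58, 67 and 70. The groups overlapped, and the log2 fold change was -0.85 (SE 0.48, adjusted p = 0.431, edgeR), or -0.49 without mouse 67. With the replicate block and all mice it was -0.81 (SE 0.46, adjusted p = 0.349, edgeR). Ereg (ENSMUSG00000029377, chr5:91074622-91093646, plus strand) encodes epiregulin. It had 0 counts in all E-cadHI libraries and 1 count each in the E-cadLO libraries of mice 57 and 67, at or under the limit of 3 counts in every library, so no fold is given. Areg, Btc, Epgn and Ereg lie near each other on chromosome 5, and their directions differed.

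Of the receptors, Egfr (ENSMUSG00000020122, chr11:16752203-16918158, plus strand), the receptor that binds all 6 ligands, had 27.0, 20.4, 23.8 and 22.7 normalized CPM in E-cadHI cells of mice 57, 58, 67 and 70. In their E-cadLO cells it had 84.1, 25.6, 14.8 and 22.2. Apart from the E-cadLO library of mouse 57 the levels of the groups overlapped. The log2 fold change was 0.64 (SE 0.49, adjusted p = 0.531, edgeR), with 2 mice higher and 2 lower. With the replicate block it was 0.31 in edgeR and 0.32 in DESeq2. Without the block it turned to -0.20 without the E-cadLO library of mouse 57 and to -0.12 without both libraries of this mouse.

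Erbb2 (ENSMUSG00000062312, chr11:98412470-98437716, plus strand), the receptor without a known ligand that pairs with the others, had 43.6, 63.2, 39.3 and 44.3 normalized CPM in E-cadHI and 43.2, 84.1, 27.7 and 21.8 in E-cadLO cells of the same mice. Its log2 fold change was -0.11 (SE 0.39, adjusted p = 0.903, edgeR), and with the replicate block -0.28 in edgeR and -0.26 in DESeq2. Without mouse 70 it was above 0 (0.09), or -0.02 with the block. The sign also turned without the E-cadHI library of mouse 58 (0.06), or without the E-cadLO library of mouse 67 (0.06) or of mouse 70 (0.13), and the value was -0.61 without that of mouse 58. Erbb3 (ENSMUSG00000018166, chr10:128567523-128589652, minus strand), a neuregulin receptor with little kinase activity of its own, had 60.0, 85.1, 78.5 and 54.8 in E-cadHI and 28.2, 99.2, 56.7 and 40.9 in E-cadLO cells. It was lower in E-cadLO cells of 3 mice and higher in mouse 58, with a log2 fold change of -0.31 (SE 0.35, adjusted p = 0.675, edgeR). With the replicate block the log2 fold change was -0.44 (SE 0.22, adjusted p = 0.312, edgeR). In fits without the block it was -0.11 without the E-cadLO library of mouse 57 and -0.73 without that of mouse 58. Without both libraries of mouse 58 it was -0.61. Both Erbb2 and Erbb3 were highest in mouse 58 in each group.

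Erbb4 (ENSMUSG00000062209, chr1:68032186-69108059, minus strand), a receptor of neuregulins that also binds HB-EGF, had 0 counts in 2 libraries and low counts in the others. The counts were 0, 33, 0 and 29 in the E-cadHI libraries and 5, 10, 15 and 76 in the E-cadLO libraries of mice 57, 58, 67 and 70, and the fitted log2 fold change of 0.64 had a SE of 1.38 (adjusted p = 0.835, edgeR). It turned to -0.56 without the E-cadLO library of mouse 70, and was 0.01 without both libraries of this mouse and 1.43 without mouse 58. With the replicate block it was 1.46 in edgeR and 2.08 in DESeq2, and 2.74 in edgeR without mouse 58, with no call in any of these fits. The groups overlapped for every receptor.

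**Figure D1:**
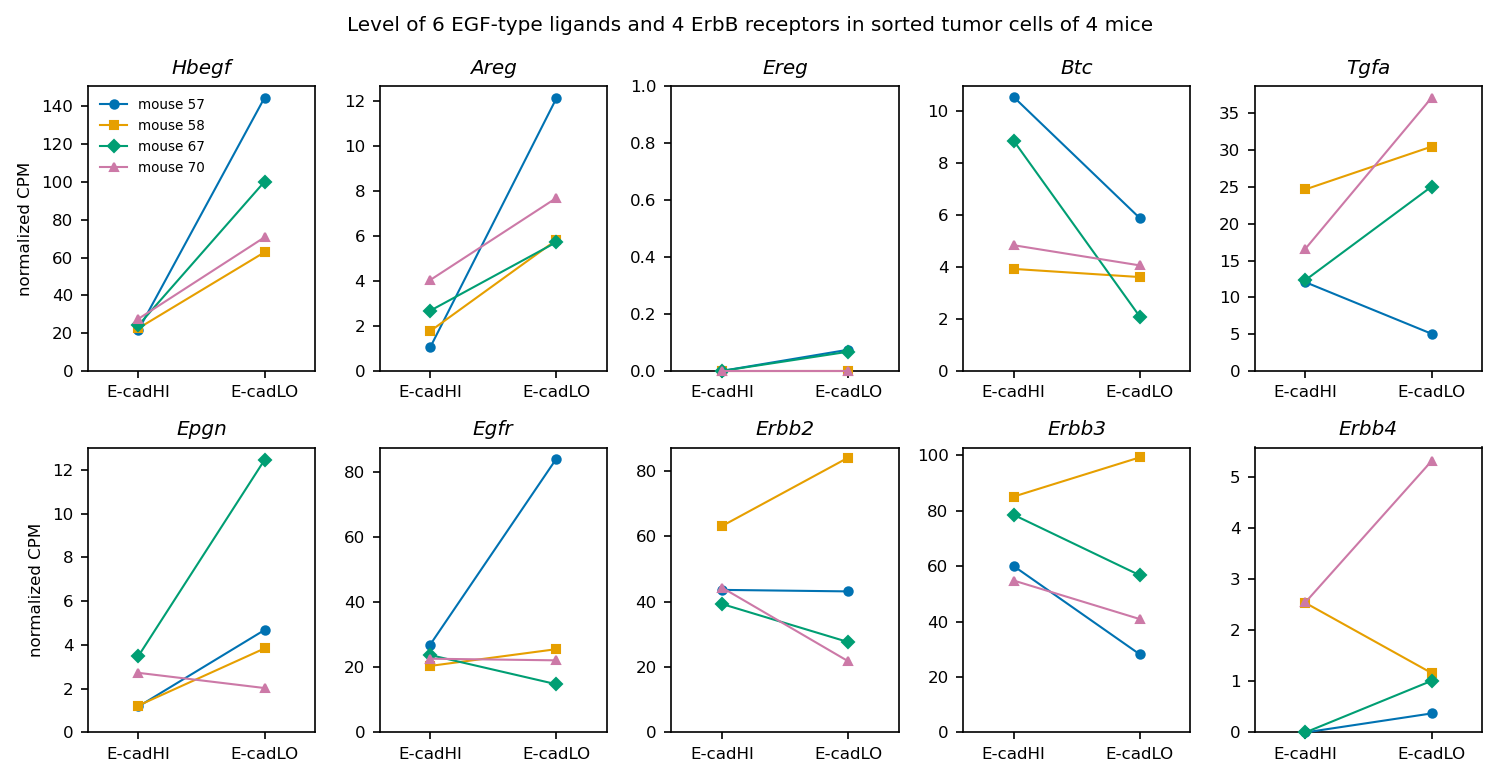
Normalized CPM of each member (vertical axis, linear, 1 scale per panel) in E-cadHI and E-cadLO cells, with a line joining the libraries of a mouse. Hbegf and Areg are the members whose groups do not overlap, and the Egfr level of 84.1 in E-cadLO cells of mouse 57 stands apart from 14.8 to 25.6 in the other E-cadLO libraries.

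**Figure D2:**
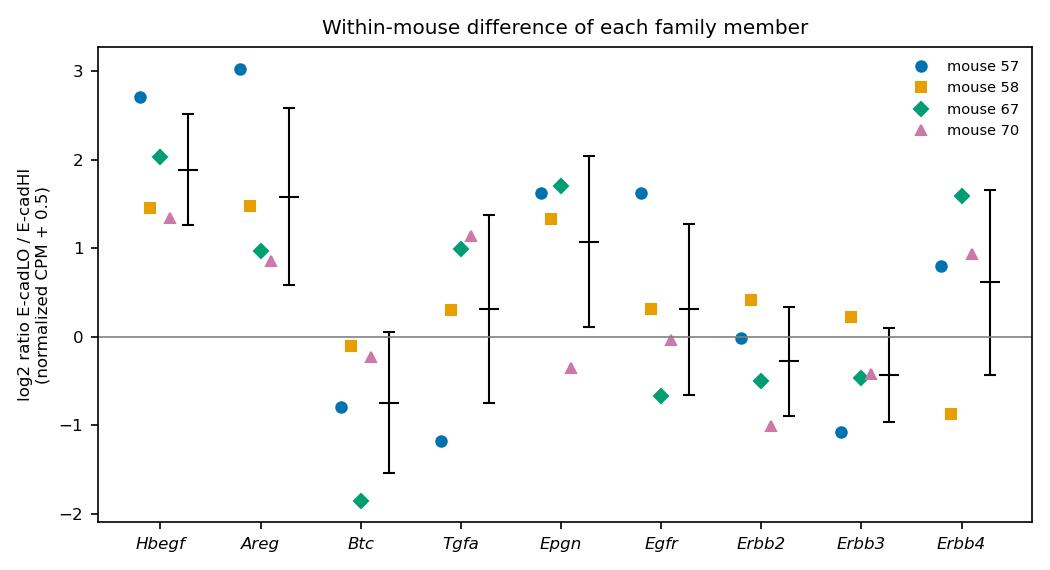
Log2 ratio of E-cadLO over E-cadHI cells within each mouse (vertical axis, normalized CPM plus 0.5) for the 9 members that were tested, with the mean and SD of 4 mice as bars. All 4 ratios are above 0 for Hbegf and Areg and below 0 for Btc, and the other members have mice on both sides.

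Exons of some members share bases with another gene, and whether the counting used strand is not given in the sources used here. The shared stretches are 9 bases of Erbb2 with Mien1, 141 bases of Ereg with Gm19610 and 118 bases of Tgfa with Gm43917, each on the opposite strand, so reads from these stretches cannot be told apart. No exon of Hbegf, Areg, Btc, Epgn, Egfr, Erbb3 or Erbb4 shared bases with another annotated gene.

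Levels of different genes were compared per kilobase of exon. In E-cadHI cells the receptors Erbb3 (11.6 ± 2.41 normalized CPM per kilobase, SD, n = 4) and Erbb2 (9.14 ± 2.03) had the highest levels, with spreads that overlapped, followed by Hbegf (4.96 ± 0.54). Tgfa (2.53 ± 0.91), Egfr (2.07 ± 0.24), Areg (1.96 ± 1.06), Btc (1.56 ± 0.70) and Epgn (1.19 ± 0.63) came next, below Hbegf beyond their spread, and the spreads of neighbors among them overlapped. Erbb4 (0.103 ± 0.119) and Ereg were lowest. The receptor side of the family was thus mostly Erbb3 and Erbb2, and Hbegf had the highest level among the ligands in each E-cadHI library.

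In E-cadLO cells the level per kilobase of Hbegf was 19.6 ± 7.66 (SD, n = 4), above Erbb3 (9.35 ± 5.14), Erbb2 (8.48 ± 5.39) and Areg (6.45 ± 2.46), and the spreads of neighbors in this order overlapped. Tgfa (3.76 ± 2.13), Egfr (3.24 ± 2.82) and Epgn (3.18 ± 2.55) were not separated from each other, and Btc (0.864 ± 0.345), Erbb4 (0.159 ± 0.183) and Ereg followed. Hbegf took from 38.5% to 44.0% of the summed ligand level in E-cadHI libraries and from 51.0% to 67.1% in E-cadLO libraries, shares that the choice of Hbegf on this contrast affects. The summed ligand level was 12.2 ± 1.74 in E-cadHI and 33.8 ± 8.58 in E-cadLO libraries, and most of that difference is the level of Hbegf itself. The summed receptor level was 22.9 ± 3.79 and 21.2 ± 9.62, a difference smaller than the spread.

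**Figure D3:**
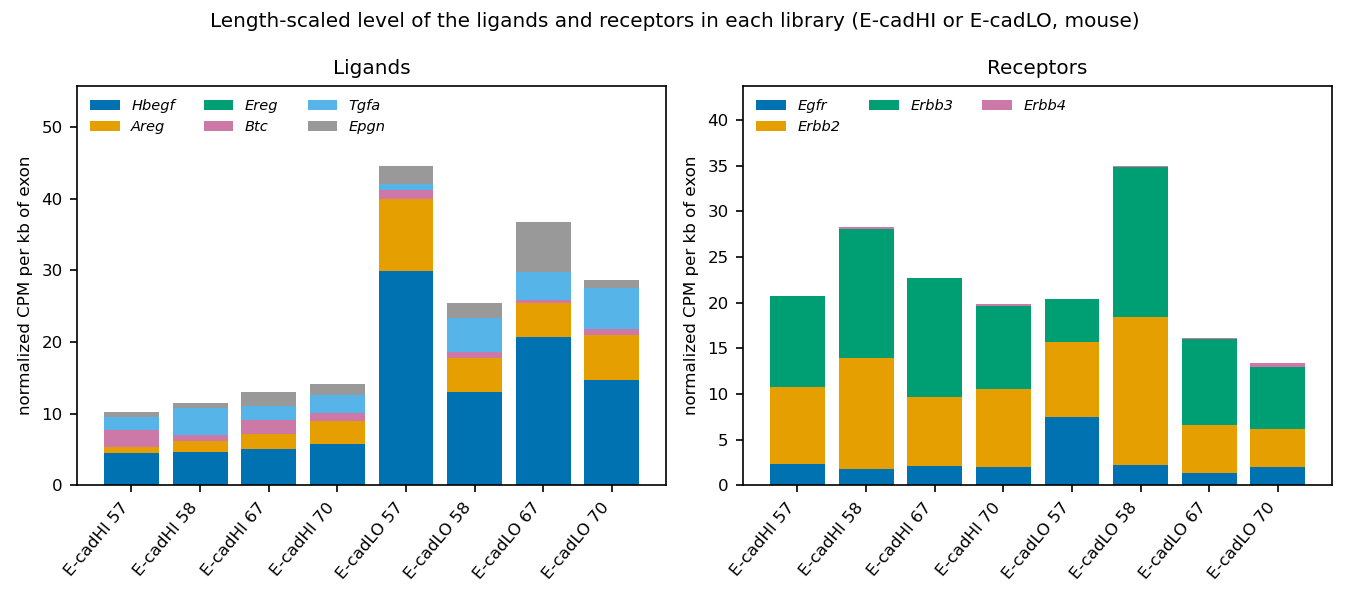
Normalized CPM per kilobase of exon (vertical axis) of the 6 ligands and 4 receptors, stacked in each of the 8 libraries. The ligand stacks are between 10.2 and 14.2 in E-cadHI and between 25.4 and 44.6 in E-cadLO libraries, while the receptor stacks of both groups overlap.

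Over all 13598 genes tested, edgeR without the block called 0 genes higher and 0 lower in E-cadLO cells, 0% in each direction, with 1109 higher and 790 lower at an unadjusted p under 0.05. Of the 9 members 0 were called by this fit, and apart from Hbegf, for which no test is given, only Areg had an unadjusted p under 0.05. In the paired fit (replicate block), edgeR called 99 genes higher (0.728%) and 0 lower (0%), with 1671 higher and 997 lower at an unadjusted p under 0.05. Among these calls was no member other than Hbegf, whose own call is not read. Without mouse 57 the 99 became 425, without mouse 58 63, without mouse 67 0 and without mouse 70 2. DESeq2 called 386 of 14606 genes higher (2.64%) and 43 lower (0.294%), and with the replicate block 1031 of 14344 higher (7.19%) and 216 lower (1.51%). By DESeq2, with or without the block, Areg was the member other than Hbegf called higher, and 0 members were lower. Nothing is read from the number of members called, since the family was chosen on this contrast.

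By direction, Areg was higher in E-cadLO cells of every mouse, as were 16.8% of all genes tested, and Btc was lower in every mouse, as were 14.2%. The groups did not overlap for Areg, which was higher, as for 3.9% of all genes, and for 0 members that were lower, against 4.2% of all genes. Hbegf also met both conditions for higher genes, but its choice on this contrast favors them, so it is not counted. The median log2 fold change over all genes tested was 0.06.

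Across the 8 libraries, the pattern of Areg was closest to that of Hbegf among the members, with a Pearson r of 0.899 on log2 normalized CPM. Epgn (0.694), Egfr (0.415) and Erbb4 (0.228) followed, and Tgfa (-0.103), Erbb2 (-0.297), Btc (-0.523) and Erbb3 (-0.600) were negative. Among all genes tested, the 5 with the highest r with Hbegf were Dubr (0.988), Hist1h1a (0.983), Gm26815 (0.983), Itgax (0.982) and Itgam (0.982). Itgax and Itgam encode integrin subunits of myeloid cells, Hist1h1a a linker histone, and Dubr and Gm26815 are noncoding RNAs. Itgam was at 2.30, 4.84, 6.39 and 6.41 normalized CPM in E-cadHI and at 117.4, 41.8, 65.5 and 34.9 in E-cadLO cells of mice 57, 58, 67 and 70. These values of r describe 8 libraries that fall into the groups by which Hbegf was chosen, so a gene that differs between the groups has a high r.

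Markers of other cell types were described in the same way. All 15 genes of the list for microglia and macrophages had a log2 fold change above 0, with a median of 2.16, and its sum was 38.6, 94.2, 128.5 and 294.8 normalized CPM in E-cadHI libraries of mice 57, 58, 67 and 70 and 293.8, 238.4, 848.0 and 1056 in E-cadLO libraries. Its most abundant gene per kilobase was C1qb, a complement subunit. Cx3cr1, Cd68, P2ry12 and Itgam were among its 5 genes called higher by edgeR with the replicate block and not without it. With the block edgeR called 0.728% of all genes higher. DESeq2 called 6 of the list higher without the block and 13 with it, beside 2.64% and 7.19% of all genes. Mrc1 had 0 counts in 3 libraries, Ptprc in the E-cadLO library of mouse 57 and Fcrls in 1 library. The E-cadLO library of mouse 57, highest in Hbegf, had a lower sum of this list than those of mice 67 and 70. Itgam (117.4 normalized CPM), Fcrls (14.0) and Mrc1 (5.35) were highest in this library of mouse 57. The other genes of the list were highest in E-cadLO cells of mouse 67 or 70. In bulk libraries, fewer cells of a type and less RNA per cell cannot be told apart. The part of these cells in the levels of Hbegf and the other members was not tested.

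All 11 astrocyte genes, with Aldoc most abundant, had a log2 fold change above 0 in edgeR without the block, and their sum was 1203, 1247, 1376 and 3744 normalized CPM in E-cadHI and 772, 1647, 2084 and 10582 in E-cadLO libraries of mice 57, 58, 67 and 70. In edgeR the log2 fold change of Aldoc was 0.47 without the block and turned to -0.31 with it, and its level in mouse 57 was 1005 normalized CPM in E-cadHI and 123.7 in E-cadLO cells. With the block edgeR called 4 genes of the list higher (Atp1b2, Gfap, S100b and Slc1a3), beside 0.728% of all genes. DESeq2 called 1 (Gja1) without the block and 7 with it, beside 2.64% and 7.19% of all genes. Of the oligodendrocyte lineage, 9 of 11 genes had a log2 fold change above 0, with Mbp, a myelin protein, most abundant, and the sum was 608, 1720, 1019 and 8690 in E-cadHI and 1354, 3886, 4357 and 34526 in E-cadLO libraries. Mbp was called higher by edgeR with the replicate block (log2 fold change 2.14) and not without it (1.97), and DESeq2 with the block called 8 genes of the list higher. Olig2 had 0 counts in both libraries of mouse 57. Both lists were highest in mouse 70 in each group.

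All 11 neuron genes tested of 12 had a log2 fold change above 0, with Camk2a most abundant. Of them 7 were higher in every mouse, beside 16.8% of all genes. The sum of the list was 11.8, 368.8, 67.3 and 254.5 normalized CPM in E-cadHI and 70.1, 934.0, 438.7 and 975.8 in E-cadLO libraries. The genes of this list called higher by edgeR with the replicate block and not without it were Camk2a, with a log2 fold change of 2.12 with the block and 1.73 without it, and Snap25. DESeq2 called 0 of the list higher without the block and 8 with it, beside 2.64% and 7.19% of all genes. Gad2 had no p in DESeq2 without the block. Gad2 and Slc17a7 had 0 counts in both libraries of mouse 57, Gad2 also in the E-cadHI library of mouse 67, and Tubb3, Stmn2 and Nefm in 1 library each. All 9 endothelial genes tested of 10 had a log2 fold change above 0, with Flt1 most abundant. Of these 9, 5 were higher in every mouse, beside 16.8% of all genes. By edgeR 0 were called, with or without the block, with 1 higher at an unadjusted p under 0.05 without it. DESeq2 called 1 (Tek) both without the block and with it, beside 2.64% and 7.19% of all genes. Cldn5 had no p in DESeq2 without the block. For this list the sum was 43.0, 44.0, 79.0 and 75.4 in E-cadHI and 63.7, 82.7, 100.6 and 118.3 in E-cadLO libraries. Slco1a4, a transporter of the brain endothelium, had 0 counts in the E-cadHI libraries of mice 57 and 58, and Cldn5 and Kdr in 1 library each.

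All 8 genes tested of 10 in the list for fibroblasts and mural cells had a log2 fold change above 0, with Col1a1, a collagen chain, most abundant. Of these 8, 3 were higher in every mouse, beside 16.8% of all genes. By edgeR 0 were called, with or without the block, with 5 higher at an unadjusted p under 0.05 without it. DESeq2 called 0 without the block and 1 (Dcn) with it, beside 2.64% and 7.19% of all genes. Col1a1, Col1a2, Col3a1 and Pdgfrb had no p in DESeq2 without the block, so that fit could not call them. The sum was 9.48, 15.8, 9.36 and 62.4 normalized CPM in E-cadHI and 1195, 21.5, 60.5 and 184.5 in E-cadLO libraries, so the E-cadLO library of mouse 57, which had the highest levels of Hbegf, Areg and Egfr, also had the highest sum of this list. Lum had 0 counts in 4 libraries and Pdgfrb in 1.

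Of 9 neutrophil genes, 3 were tested, 1 with a log2 fold change above 0 and 2 below, and the sum was 19366, 12850.3, 17166 and 15544 in E-cadHI and 2632, 12604, 7488 and 7051 in E-cadLO libraries, nearly all of it Ltf, which mammary epithelium also expresses. Ly6g and Cxcr2 had 0 counts in 5 libraries, Retnlg, Camp and S100a9 in 6, Mmp8 in 3 and Csf3r in 1. Of the 12 epithelial genes, 3 had a log2 fold change above 0 (Krt7, Krt8 and Krt18) and 9 below, with Krt18 most abundant. Their sum was 10564, 7866, 10441 and 9344 in E-cadHI and 5814, 9739, 14661 and 8241 in E-cadLO libraries. DESeq2 with the block called 1 epithelial gene lower (Elf5) and 1 of the neutrophil list lower (Ltf), beside 1.51% of all genes. DESeq2 without the block and edgeR with or without it called 0 of either list. The part of these cell types in the values of the ligands and receptors was not tested.

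The other genes of the pathway were described from 7 lists with 91 genes, of which 87 were tested. Of these, 55 had a log2 fold change above 0 and 32 below, with a median of 0.26, beside 55.1% of all genes above 0 and a median of 0.06. In edgeR without the block 0 of the 87 were called, with 16 higher and 3 lower at an unadjusted p under 0.05. At this threshold 1109 of all 13598 genes were higher and 790 lower. With the replicate block edgeR called 3 higher, beside 0.728% of all genes, and 0 lower. DESeq2 called 6 higher, beside 2.64% of all genes, and 0 lower, beside 0.294%, and Gpc1, Sdc2 and Spry1 had no p in this fit. DESeq2 with the block called 10 higher, beside 7.19% of all genes, and 1 lower, beside 1.51%. The 3 genes called with the replicate block were Timp3, Fosl1 and Atf3.

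Of the other EGF family ligands, 3 of 5 were tested and 0 were called by edgeR or DESeq2, with or without the block, and 0 had an unadjusted p under 0.05 in edgeR. Nrg1, which encodes a ligand of ErbB3 and ErbB4 and was the most abundant per kilobase of these ligands, had 3.14, 1.46, 1.11 and 2.11 normalized CPM in E-cadHI and 13.0, 1.05, 2.56 and 4.68 in E-cadLO cells of mice 57, 58, 67 and 70. Its log2 fold change was 1.44 (SE 0.75, adjusted p = 0.403, edgeR), and Nrg4, a ligand of ErbB4, had 0.50 (SE 0.77). Without the E-cadLO library of mouse 57 the log2 fold change of Nrg1 was 0.47, and without both libraries of this mouse it was 0.80, or 0.65 with the replicate block. That of Nrg4 turned to -0.26 without mouse 57 and was 1.12 without mouse 70, or 1.30 with the block.

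Among the 9 genes of ligand shedding and trafficking, 7 had a log2 fold change above 0 and 2 below, with a median of 0.39. Timp3, an inhibitor of ADAM and matrix proteases that stays in the matrix, was at 11.1, 13.6, 15.8 and 19.9 normalized CPM in E-cadHI and at 35.0, 33.7, 61.8 and 84.6 in E-cadLO cells. The groups did not overlap. The log2 fold change of Timp3 was 1.83 (SE 0.34) in edgeR without the block (adjusted p = 0.204) and 1.76 (SE 0.20) with it (adjusted p = 0.0239), higher in 4 of 4 mice, and over 23 alternatives the adjusted p ranged from 3.7e-11 to 0.680. The call with the block was lost without mouse 67 (adjusted p = 0.247, edgeR, log2 fold change 1.70) and without mouse 70 (0.137, log2 fold change 1.66). Adam10, a sheddase of several EGF family members and the most abundant gene of the list, had a log2 fold change of -0.32 (SE 0.18, adjusted p = 0.437, edgeR).

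The 10 genes that encode partners of HB-EGF and carriers of heparan sulfate were divided, 5 above and 5 below 0, with a median log2 fold change of 0.06. By edgeR and DESeq2, with or without the block, 0 were called, but Gpc1 and Sdc2 had no p in DESeq2 without the block. In edgeR without the block 2 were higher and 1 lower at an unadjusted p under 0.05. Cd81, a tetraspanin and the most abundant gene of this list, was at -0.71 (SE 0.38, adjusted p = 0.413, edgeR). Cd9, a tetraspanin that associates with membrane HB-EGF, was at -0.44 (SE 0.16) and lower in E-cadLO cells of all 4 mice, and Itga3, an integrin subunit, was at 1.03 (SE 0.39).

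Of the 28 adaptors and transducers, 14 were above and 14 below 0, with a median log2 fold change near 0. Map2k1, the kinase MEK1 and the most abundant of them, was at -0.18 (SE 0.16, adjusted p = 0.590, edgeR). Stat5a, a transcription factor of the mammary epithelium, was at 54.8, 58.9, 61.6 and 60.0 normalized CPM in E-cadHI and at 23.2, 53.0, 28.1 and 38.9 in E-cadLO cells. Gab2, an adaptor that recruits PI3K, was at 15.5, 18.6, 10.1 and 13.3 and at 20.1, 28.8, 19.6 and 32.6. The groups overlapped for neither, and the log2 fold changes were -0.72 (SE 0.25) for Stat5a and 0.81 (SE 0.28) for Gab2. Of the 4 fits, only DESeq2 with the replicate block called them, with an adjusted p of 0.0382 for Stat5a, in a range from 0.0382 to 0.681 over its 23 alternatives, and of 0.0326 for Gab2, in a range from 0.0326 to 0.680.

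Of the inhibitors that act at the receptor, 11 of 12 were tested, 6 above and 5 below 0. By edgeR and DESeq2, with or without the block, 0 were called, and 2 were higher at an unadjusted p under 0.05 in edgeR without the block. Errfi1, which encodes the EGFR kinase inhibitor MIG6 and was the most abundant, had a log2 fold change of 0.40 (SE 0.28, adjusted p = 0.509, edgeR). Lrig1, a membrane protein that lowers ErbB receptor levels, had 0.63 (SE 0.27), and Cblb, a ubiquitin ligase, had 0.83 (SE 0.34). Of the 9 feedback inhibitors of ERK signaling, 7 were above and 2 below 0. By these fits of edgeR and DESeq2 0 were called, but Spry1 had no p in DESeq2 without the block. In edgeR 1 was higher at an unadjusted p under 0.05. Dusp4 and Dusp5, phosphatases of ERK in the nucleus, had log2 fold changes of 0.87 (SE 0.35) and 0.95 (SE 0.43), and Spry2, the most abundant, had 0.07 (SE 0.33), with a sign that turned in 5 alternatives.

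Genes whose transcription ERK signaling induces had the second highest median among the 7 pathway lists, 0.72. Of 17 tested genes 13 were above 0, beside 55.1% of all genes. In edgeR without the block 8 were higher and 0 lower at an unadjusted p under 0.05, beside 1109 and 790 of all 13598 genes. The groups did not overlap for 5 that were higher and 1 that was lower, beside 3.9% and 4.2% of all genes. Fosl1, which encodes the AP-1 subunit FRA1, was at 3.35, 2.08, 2.75 and 4.65 normalized CPM in E-cadHI and at 31.2, 15.8, 30.5 and 17.4 in E-cadLO cells of mice 57, 58, 67 and 70. Its log2 fold change was 2.89 (SE 0.38) in edgeR without the block (adjusted p = 0.114) and 2.88 (SE 0.35) with it (adjusted p = 0.0239), with a range of adjusted p from 1.9e-12 to 0.680. Atf3, a stress-induced transcription factor, was at 97.5, 79.4, 44.1 and 75.2 in E-cadHI and at 568.0, 219.4, 351.3 and 161.6 in E-cadLO cells. Its log2 fold change was 2.13 (SE 0.40, adjusted p = 0.204, edgeR) and 2.03 (SE 0.33) with the block (adjusted p = 0.0475), with a range from 3.1e-08 to 0.680. Both genes rose in the fit with the block, in 4 of 4 mice, and their groups did not overlap.

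The blocked calls of Fosl1 and Atf3 were also lost when a mouse other than 57 was left out. Without mouse 58 the adjusted p with the block in edgeR was 0.0578 for Fosl1 and 0.0778 for Atf3, without mouse 67 it was 0.259 and 0.360, and without mouse 70 it was 0.126 for each. With a mouse left out, the log2 fold changes with the block were between 2.69 and 3.22 for Fosl1 and between 1.71 and 2.35 for Atf3. Ier2, an immediate early gene and the most abundant of the list, had a log2 fold change of 0.72 (SE 0.31), was higher in 4 of 4 mice, and was called by DESeq2 with the replicate block (adjusted p = 0.0321, in a range from 0.0321 to 0.699). DESeq2 with the block also called Dusp1, Egr2, Junb, Klf6 and Plaur of this list higher, named because they complete its 8 calls, beside 7.19% of all genes. Without the block DESeq2 called 5 of the list higher, Atf3, Fosl1, Junb, Klf6 and Plaur, beside 2.64% of all genes. The sums of the lists for microglia and macrophages, the oligodendrocyte lineage, neurons, endothelium, and fibroblasts and mural cells were likewise higher in E-cadLO libraries of all 4 mice, and their part in the values of Timp3, Fosl1 and Atf3 was not tested.

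**Figure D4:**
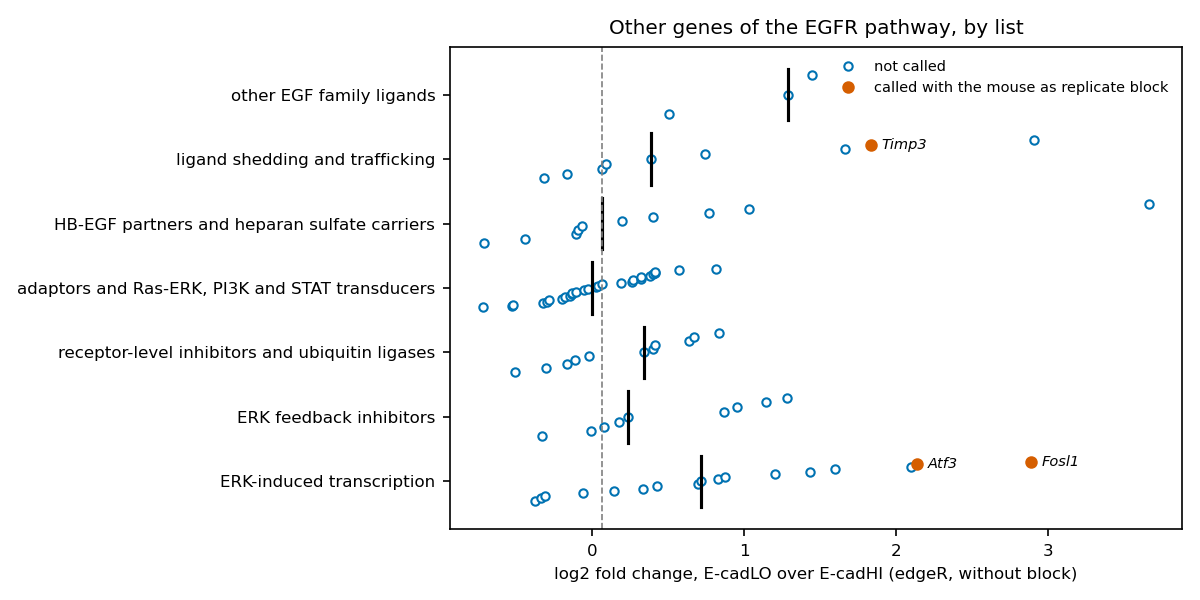
Log2 fold change of E-cadLO over E-cadHI cells (horizontal axis, edgeR without the block) of each tested pathway gene, by list, with the list's median as a vertical bar and the median of all genes (0.06) as a dashed line. Timp3, Atf3 and Fosl1, the filled points, are the genes called with the mouse as a replicate block.

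Promoters of the members were searched for motifs of AP-1 and ATF factors because Fosl1 and Atf3 were among the called genes. RefSeq promoters (GRCm38.p6) were matched for 7 of the 10 members. Hbegf, Ereg and Erbb3 were not matched. In the 250 bases before each start, read on both strands, the motif TGACGTCA was found in 1 of the 7 (Areg) and in 508 of 32851 promoters (1.55%), and the motif TGANTCA in 0 of the 7 and in 2217 of 32851 promoters (6.75%). Each motif reads the same on both strands, and neither contains the other. The Areg promoter is shown because Areg is, beside Hbegf, the ligand whose groups did not overlap. The stretch is chr5:91139349-91139598, plus strand, and the capitals mark TGACGTCA at 91139538 to 91139545, whose last base lies 54 bases before the start.
Areg: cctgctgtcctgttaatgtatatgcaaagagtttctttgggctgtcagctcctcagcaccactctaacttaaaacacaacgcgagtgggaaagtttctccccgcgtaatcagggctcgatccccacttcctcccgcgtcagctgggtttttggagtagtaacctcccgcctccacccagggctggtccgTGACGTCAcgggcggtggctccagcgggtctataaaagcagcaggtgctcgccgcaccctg
The match is a description of letters in this window and not a site or a cause.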

How the data were processed

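E-cadHI and E-cadLO cells from BCBM of 4 mice gave 8 bulk mRNA libraries. The authors mapped reads to GRCm38 (HISAT2 2.1.0 in the submitters' processing notes) and deposited whole-number counts per gene. The notes name HTSeq for counting and the study's methods another counter, and strand use is not given in the sources used here. Entries without a gene identifier (365 of 32259, from 0.0636% to 0.0954% of counts) were left out. Total counts were from 9102781 to 15769200 per library.

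Counts were tested with edgeR 4.0.16 (R 4.3.3, limma 3.58.1) with TMM scaling, filterByExpr by group and the two-sided quasi-likelihood test, adjusted by Benjamini-Hochberg over 13598 genes at a threshold of 0.05, without the mouse as a block. The fits of edgeR and DESeq2, without and with the block, were tested on simulated counts drawn without a mouse effect. Alternatives were the mouse as a replicate block, DESeq2 1.42.0 without and with it, DESeq2 size factors, no filter, at least 10 counts in every library, a robust fit, and each mouse or library left out. The populations pair because they come from the same animal, and the deviations of same-mouse libraries correlated with r from 0.248 to 0.692, against at most 0.144 for other pairs. No pair of libraries was alike within sampling noise (smallest chi-square per degree of freedom 27.7). Exon lengths and overlaps came from GENCODE M21, and promoters from RefSeq (GRCm38.p6). Nrdc was found in the table as Nrd1 through RefSeq synonyms. Figures and tables used Python 3.11.15, pandas 2.3.3 and matplotlib 3.10.9.

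The members and all lists were chosen with earlier results of these data known. The lists are 7 of the pathway and 8 of markers (epithelium, microglia and macrophages, astrocytes, oligodendrocyte lineage, neurons, endothelium, fibroblasts and mural cells, neutrophils). Named were all members, of each pathway list the genes called without or with the block (at most 4), or otherwise the 2 with the lowest p with the block, and the most abundant gene. The 5 genes most like Hbegf (r of log2 CPM, prior count 2), 4 label checks, and the most abundant gene and the markers with 0 counts in a library of each marker list were also named.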

Additional observations from a re-analysis of the deposited data

Results flagged for a closer look

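In groups of 4 libraries, a library is listed here where its gap to the nearest other library, divided by the group's range, was above Dixon's critical value, which chance gives in about 1 in 20 groups. Of 57 groups with a range (levels of the members, sums of the lists), 8 held such a library, 6 from mouse 70 and 2 from mouse 57, with ratios from 0.840 to 0.932.

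Egfr had 84.1 normalized CPM in E-cadLO cells of mouse 57, where the other E-cadLO libraries had from 14.8 to 25.6. Erbb4 had 5.31 normalized CPM in E-cadLO cells of mouse 70, against 0.371 to 1.16 in the others. The summed astrocyte markers were at 3744 normalized CPM in E-cadHI cells of mouse 70 (others 1203 to 1376) and at 10582 in E-cadLO cells of this mouse (others 772 to 2084). The summed oligodendrocyte lineage markers were at 8690.4 in E-cadHI cells (others 608 to 1720) and 34526 in E-cadLO cells (others 1354 to 4357) of mouse 70. The summed fibroblast and mural markers were at 62.4 in E-cadHI cells of mouse 70 (others 9.36 to 15.8) and at 1195 in E-cadLO cells of mouse 57 (others 21.5 to 184.5). The part of these libraries in other results is given as values without them, and the cause was not tested.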

How the results depend on the processing

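Of 28 results for single genes, 23 kept their direction under every alternative that gave a value (22 or 23 of them). With at least 10 counts in every library, Erbb4, Nrg1 and Nrg4 were not tested. The paired fit (replicate block) moved the genes called higher in E-cadLO cells from 0 to 99, the members called from 0 to 1 and the pathway genes called from 0 to 3, and left genes called lower at 0. The counts of members called include Hbegf, which this contrast chose, and nothing is read from them. DESeq2 gave 386 genes higher and 43 lower, 2 members and 6 pathway genes, and DESeq2 with the replicate block gave 1031, 216, 2 and 11. Without a filter, 23 genes were higher, with 1 member and 3 pathway genes, and with at least 10 counts in every library 3, 1 and 1. Leaving out a mouse without the block gave 0 in each of these counts. So did leaving out 1 library, apart from the E-cadLO library of mouse 70 (13 genes higher, 1 member and 1 pathway gene). Leaving out a mouse with the block changed both choices at once. Genes higher were then 425 without mouse 57, 63 without mouse 58, 0 without mouse 67 and 2 without mouse 70. In these blocked fits 0 to 24 genes were lower, with 0 to 1 members and 0 to 4 pathway genes. DESeq2 size factors and the robust fit left these counts at 0. With libraries left out and no block, the log2 fold change of Egfr ranged from -0.20 to 0.96 and turned without mouse 57 (-0.12, or -0.15 with the block) and without its E-cadLO library (-0.20). Erbb2 ranged from -0.61 to 0.13 and turned without mouse 70 (0.09), the E-cadHI library of mouse 58 (0.06) and the E-cadLO libraries of mice 67 (0.06) and 70 (0.13). Erbb3 ranged from -0.73 to -0.11. Erbb4 ranged from -0.56 to 1.43 and turned without the E-cadLO library of mouse 70 (-0.56), and with the block and a mouse left out it ranged from 0.70 to 2.74. Nrg1 ranged from 0.47 to 1.81. Nrg4 ranged from -0.26 to 1.12 and turned without mouse 57 (-0.26, or -0.24 with the block). Spry2 ranged from -0.15 to 0.27 and turned without mouse 67 (-0.10, or -0.11 with the block), the E-cadHI library of mouse 58 (-0.10) and the E-cadLO libraries of mice 67 (-0.15) and 70 (-0.07). Calls of Timp3, Fosl1, Atf3, Areg, Stat5a, Gab2 and Ier2 were gained 23 times over these alternatives, and the cause was not tested. In edgeR the block gained the calls of Timp3, Fosl1 and Atf3 and, of the named markers, of Itgam, Cx3cr1, Cd68, P2ry12, Atp1b2, Gfap, S100b, Slc1a3, Mbp, Camk2a and Snap25, and changed no other call of a member or list gene named here, apart from Hbegf, for which no test is given. Fewer libraries leave fewer degrees of freedom. Depth limits Ereg, at or under 3 counts in every library, and Erbb4, with 0 to 5 counts in 3 libraries.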
